A study of Homo sapiens with 3 samples.

Results

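The mitochondrial ribosomal protein genes were all gene symbols that begin with MRPL or MRPS followed by a digit. There were 80 of them among the 18856 genes listed in at least 1 of the 3 libraries. By the systematic naming of ribosomal proteins, 50 encode subunits of the large ribosomal subunit and 26 encode subunits of the small one. MRPS36 was later renamed KGD4, a component of an oxoglutarate dehydrogenase complex, and is not counted as a ribosome subunit. The remaining 3 symbols are noncoding, the antisense RNA MRPL23-AS1 and the pseudogenes MRPL45P2 and MRPS31P5. In 2 cases the symbol misleads, since the proteins of MRPS30 and MRPS18A sit in the large subunit, and both genes were counted there.

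The mitochondrial ribosome translates the mRNAs that mitochondrial DNA encodes, all of them for subunits of the oxidative phosphorylation complexes. Its rRNAs come from mitochondrial DNA, while every protein is encoded in the nucleus, made in the cytosol and imported. Compared with a bacterial ribosome it holds less RNA and more protein, and its proteins divide into those with a bacterial counterpart and those specific to mitochondria.

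The values come from 3 libraries, each made from 10 pg of polyA+ mRNA that had been diluted from bulk mRNA. HBE is a human bronchial epithelial cell line and A549 a human lung adenocarcinoma cell line, and no treatment is named for either. LIEA, the low-input, equal-amplification method, fragments the mRNA at random, ligates adapters and sequences on an Ion Torrent instrument, and it was applied to HBE and A549. Smart-seq2, which copies the mRNA from its polyA tail and amplifies the cDNA before an Illumina library is made, was applied to the same HBE material. Each condition had 1 library, so no difference below has a replicate check and no test was possible. Intervals of levels, ratios and shares cover counting error only. Those of medians over genes describe the spread over genes, and none covers variation between libraries. Equal amounts of mRNA were sequenced, so less mRNA of a gene per cell and less of it relative to the other mRNA of the cell cannot be told apart. The cell line comparison and the method comparison both use the LIEA library of HBE.

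Levels are rpkM, the reads of a gene divided by the length of its transcript in kilobases and by the mapped reads of the library in megareads. The mapped reads numbered 4605855 in HBE LIEA, 4154060 in A549 LIEA and 9845150 in HBE Smart-seq2. Of 5 epithelial markers, 5 had at least 10 reads in each library, but their levels differed between the lines. The log2 ratios of A549 to HBE by LIEA were -2.97 for EPCAM, -1.56 for CDH1 and -0.46 for KRT19. They were 2.97 for KRT8 and 2.53 for KRT18. CDKN2A, chosen as a gene deleted in A549, was not listed in any library, so it could not separate the lines. The 5 basal airway markers summed to 1706 rpkM in HBE LIEA, 6464 in HBE Smart-seq2 and 9.07 in A549 LIEA, where KRT14 was not listed, while 6 markers of A549 summed to 271, 221 and 12972 rpkM in that order. Of 3 blood cell markers, PTPRC had at most 3 reads in any library, CD3E was not listed, and CD68 had 151 reads in HBE LIEA, 71 in A549 LIEA and 326 in HBE Smart-seq2. Of 3 fibroblast markers, DCN was not listed, COL3A1 had at most 3 reads and COL1A1 had 175, 93 and 85 reads in the same order. The 3 endothelial markers summed to 12.3 rpkM in HBE LIEA, 10.9 in HBE Smart-seq2 and 0.487 in A549 LIEA, and the part of such differences between the lines in the values below was not tested.

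All 80 mitochondrial ribosomal protein genes were listed in all 3 libraries. With at least 10 reads, the study's criterion for a quantified gene, 79 were quantified in HBE LIEA, 77 in A549 LIEA and 78 in HBE Smart-seq2. The genes below it were MRPL45P2 in each library, MRPL23-AS1 in A549 LIEA, and MRPS24 in A549 LIEA and in Smart-seq2. Every other one of the coding genes was quantified in every library.

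The 77 coding genes lay in the upper part of the expression range in each library. Their median level was 30.1 rpkM in HBE LIEA, 32.1 in A549 LIEA and 54.8 in HBE Smart-seq2, against 9.65, 8.59 and 7.16 for all quantified genes. Of the 77, 72, 65 and 75 were above that median in the 3 libraries. The proteins of the cytosolic ribosome had medians of 687, 624 and 343 rpkM, and the nuclear-encoded respiratory chain subunits 65.5, 71.0 and 110. The mitochondrial ribosomal proteins were therefore the lowest of the 3 groups in every library.

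Together the 80 genes took 0.412% of the mapped reads in HBE LIEA (exact 95% binomial interval 0.406 to 0.418%), 0.356% in A549 LIEA (0.350 to 0.362%) and 0.724% in HBE Smart-seq2 (0.718 to 0.729%). The share was highest in Smart-seq2 and lowest in A549, and the 3 counting intervals were separate.

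**Figure D1:**
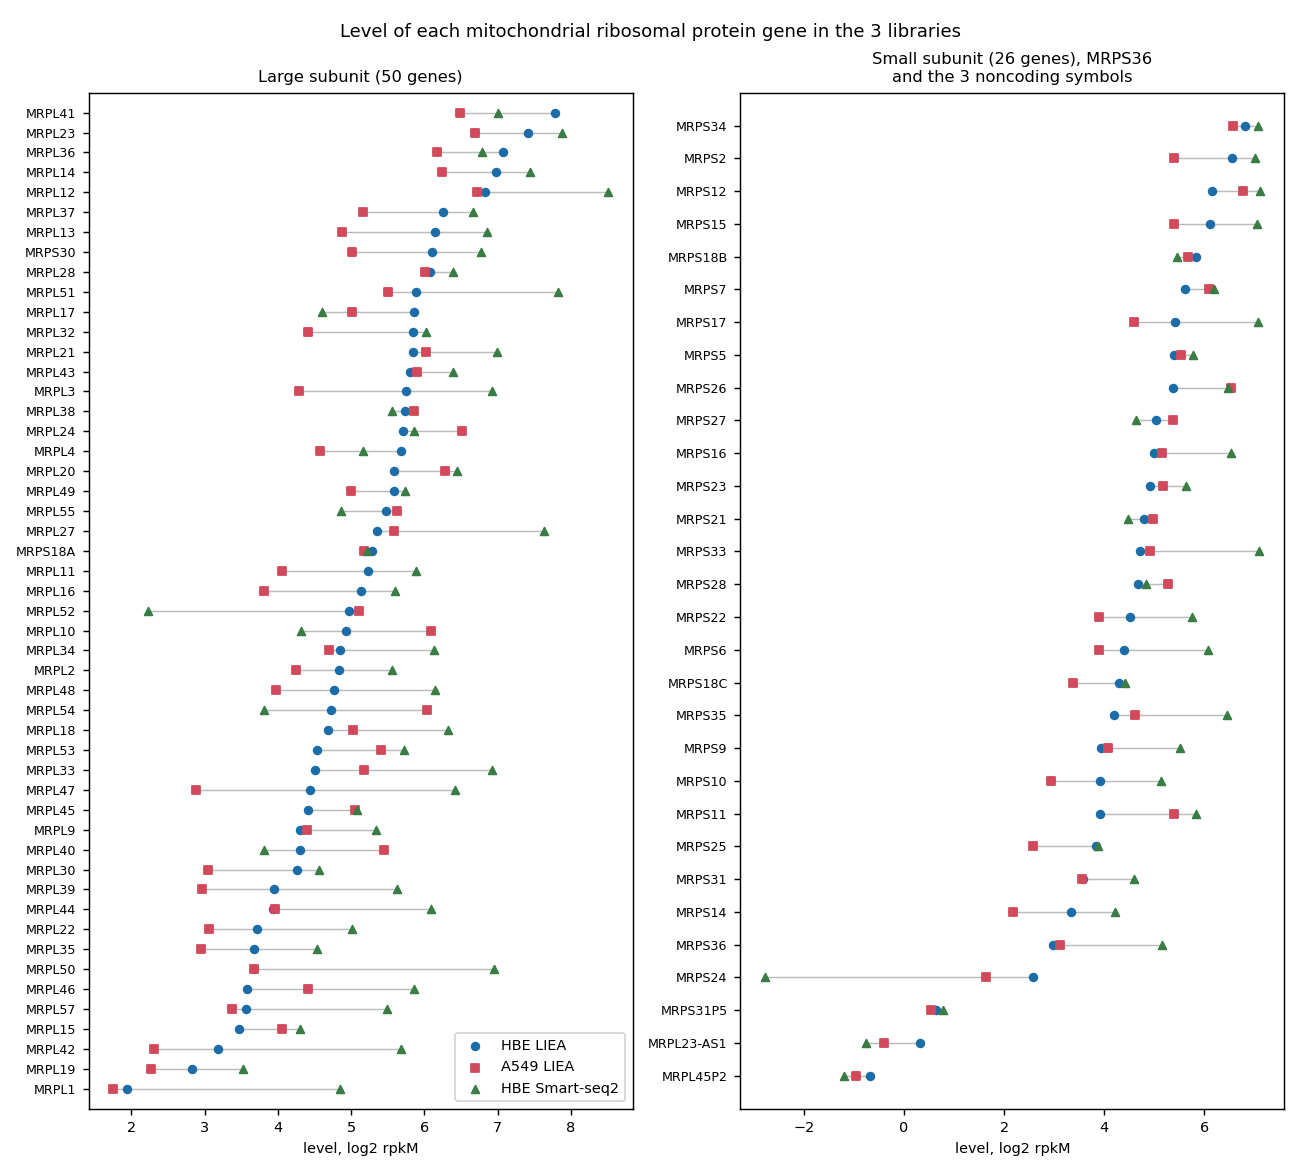
Level of each of the 80 genes in the 3 libraries, as log2 rpkM on the horizontal axis of both panels, with 1 row per gene ordered by HBE LIEA and a grey line from the lowest to the highest library. Most triangles (HBE Smart-seq2) lie to the right of the circles (HBE LIEA), and the single triangle far to the left is MRPS24 with 1 read.

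Within the complex, whose subunits are built in as single copies apart from MRPL12, the mRNA levels spanned a wide range. The SD of log2 rpkM over the 77 coding genes, MRPS36 among them, was 1.16 in HBE LIEA, 1.29 in A549 LIEA and 1.51 in Smart-seq2. The Smart-seq2 value includes MRPS24, whose log2 rpkM of -2.78 rested on 1 read. The next lowest coding gene there, MRPL52, had 2.23. The larger SD in Smart-seq2 is therefore no sign of a wider spread of the other genes. In HBE LIEA the highest levels belonged to MRPL41 with 221 rpkM, MRPL23 with 171, MRPL36 with 135, MRPL14 with 127 and MRPL12 with 114. MRPL23 lies at the exit of the peptide tunnel and MRPL14 at the interface of both subunits. In A549 LIEA the highest were MRPS12 with 110 rpkM, MRPL12 with 105, MRPL23 with 104, MRPS34 with 95.3 and MRPS26 with 93.1. In Smart-seq2 they were MRPL12 with 364 rpkM, MRPL23 with 236, MRPL51 with 228, MRPL27 with 199 and MRPL14 with 174. MRPL12 and MRPL23 were among the 5 highest in each library.

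At the low end, MRPL1, the protein of the mobile stalk near the exit site for tRNA, had 24 reads and 3.83 rpkM in HBE LIEA, 19 reads and 3.37 rpkM in A549 LIEA, and 386 reads and 28.9 rpkM in Smart-seq2. In Smart-seq2 it was also below the lower quartile of the coding members, 32.2 rpkM. The noncoding symbols were lower still in the LIEA libraries, and in Smart-seq2 MRPS24 alone was below them. MRPL45P2 had 4, 3 and 6 reads in HBE LIEA, A549 LIEA and Smart-seq2, MRPL23-AS1 had 11, 6 and 11, and MRPS31P5 had 25, 21 and 59. MRPL23-AS1 overlaps MRPL23 by 1286 bases on the opposite strand, and whether the counting used strand is not given in the sources used here, so reads of the overlap cannot be assigned with certainty.

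Neighbours in the order of levels could seldom be told apart. Of 76 neighbouring pairs of coding genes, the counting intervals were separate for 4 in HBE LIEA, 0 in A549 LIEA and 8 in Smart-seq2. Of the 77 coding genes, 36 have at least 1 annotated pseudogene named after them, with which reads could be shared. MRPL42, MRPL57 and MRPS36 have 5 each and MRPS21 has 8.

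The mean level of the large subunit genes was 46.2 rpkM in HBE LIEA against 35.5 for the small subunit genes, a ratio of 1.30. The ratio was 1.03 in A549 LIEA (37.3 against 36.2 rpkM) and 1.19 in Smart-seq2 (78.3 against 65.6 rpkM). The median of the small subunit genes was 0.811 times that of the large subunit genes in HBE LIEA, 1.04 times in A549 LIEA and 0.940 times in Smart-seq2. The mean of the large subunit genes was above that of the small subunit genes in each library, and their median in both HBE libraries.

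The comparison of A549 with HBE, both by LIEA, asks how the cancer line differed from the bronchial line with the method held the same. A gene was called where its rpkM differed by more than 2-fold, among the genes that had 10 reads or more in each of the 2 libraries. Of 77 mitochondrial ribosomal protein genes compared, 5 were higher in A549, where 13.4% of all 11293 genes compared were higher, and 14 were lower, where 17.3% of all were. The share that was lower was 18.2%, near the background, and the share that was higher was 6.49%, below it. With 1 added to each rpkM these shares stayed the same. Those of all genes then fell to 13.5% lower and 10.7% higher, so the nearness on the low side depends on genes of low level. The median log2 ratio was -0.12 against -0.16 for all genes, and it turned to 0.04 when the ratios were centred on the median of all genes, so its sign depended on the scaling. The exact counting interval of the ratio lay above 0 for 17 genes, below 0 for 34 and held 0 for 26.

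MRPS11, a protein of the small subunit platform near the mRNA exit, had the highest ratio. Its level was 15.0 rpkM in HBE (exact 95% Poisson interval 12.3 to 18.2) and 41.9 in A549 (36.9 to 47.3), a log2 ratio of 1.48 (1.14 to 1.82). MRPL54 of the large subunit had 26.5 rpkM in HBE and 65.7 in A549, a log2 ratio of 1.31 (0.91 to 1.72). The other genes past 2-fold were MRPS26 at 1.18, MRPL40 at 1.16 and MRPL10 at 1.16. For MRPS11 the whole interval lay above 2-fold, and for the other 4 it reached below 2-fold but not 0. Next in order were MRPL53 with a log2 ratio of 0.88, MRPL46 with 0.83 and MRPL24 with 0.81.

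MRPL3, a core protein that reaches towards the peptidyl transferase centre, had the lowest ratio among those with 50 reads or more in each of both libraries. Its level was 53.8 rpkM in HBE (48.9 to 59.1) and 19.5 in A549 (16.4 to 23.0), a log2 ratio of -1.46 (-1.75 to -1.19). MRPL32, which is cleaved by a mitochondrial protease before it joins the ribosome, had 57.7 rpkM in HBE and 21.3 in A549, a log2 ratio of -1.44 (-1.82 to -1.06). MRPL16, which contacts the tRNA site of the large subunit, had 35.1 and 14.1 rpkM, a log2 ratio of -1.32 (-1.74 to -0.92). MRPL41, the highest of the group in HBE, had 221 and 89.7 rpkM, a log2 ratio of -1.30 (-1.53 to -1.08). The other low ratios were those of MRPL13 at -1.27, the small subunit protein MRPS25 at -1.25, MRPL30 at -1.21 and MRPL11 at -1.17. MRPL47, chosen after its values were seen, had 59 reads in HBE and 18 in A549 and a log2 ratio of -1.56 (-2.41 to -0.78), so its value is less precise than these. The whole interval lay below 2-fold for 3 genes, MRPL3, MRPL32 and MRPL41.

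**Figure D2:**
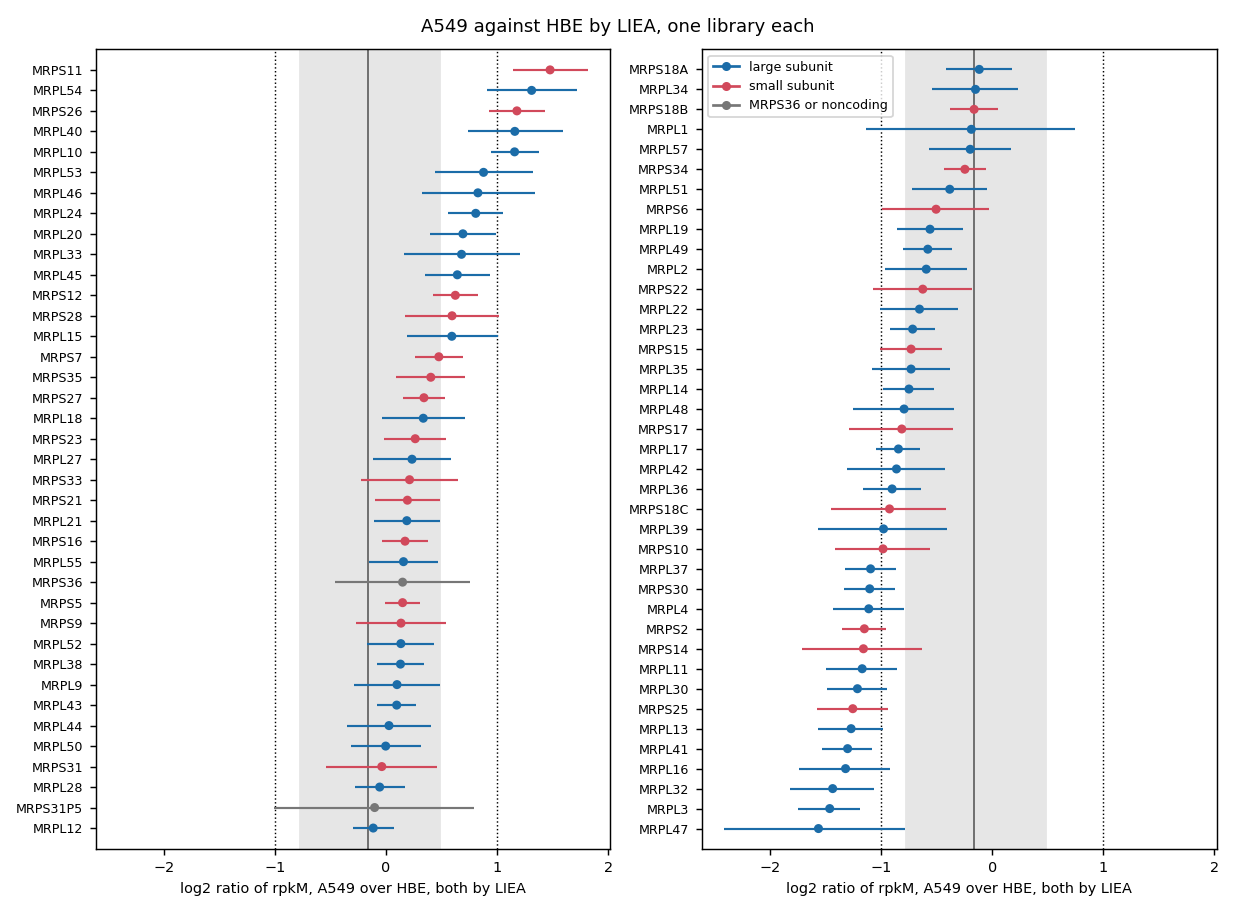
Log2 ratio of rpkM in A549 over HBE, both by LIEA, for the 77 genes compared, in descending order over both panels, with the exact 95% counting interval as a line. Blue is the large subunit, red the small subunit and grey the rest, dotted lines mark 2-fold, and the grey line and band are the median and the range from the 25th to the 75th percentile of all genes. Of the 19 genes past 2-fold, 14 are on the low side and 11 of those are blue.

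Of 50 large subunit genes, 11 (22.0%) were lower, beside 17.3% of all genes, and 3 (6%) higher, beside 13.4% of all genes. Their median log2 ratio was -0.19 (-0.73 to 0.10). Of 25 small subunit genes compared, 3 (12%) were lower and 2 (8%) higher, with a median of 0.13 (-0.63 to 0.26). The intervals of the medians, which describe the spread over genes, overlapped. With 1 library per cell line, a difference between the subunits was not tested. Among the large subunit genes, the 30 with a bacterial counterpart had 8 (26.7%) lower and 1 (3.33%) higher and a median of -0.58. The 20 specific to mitochondria had 3 (15%) lower and 2 (10%) higher and a median of -0.06. Here too the intervals of the medians overlapped, from -0.84 to 0.10 for the former and from -0.79 to 0.13 for the latter. A difference between these classes was not tested either.

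The stalk of the large subunit recruits the translation factors, and its 3 proteins differed from each other. MRPL10, the stalk's anchor, had 30.4 rpkM in HBE (26.9 to 34.3) and 67.9 in A549 (62.2 to 73.9). MRPL11, at the base of the stalk, had 37.6 rpkM (33.4 to 42.2) and 16.7 (13.8 to 20.02). MRPL12, the mobile part, had 114 rpkM (104 to 124) and 105 (95.5 to 115), a log2 ratio of -0.12 (-0.30 to 0.07). MRPL10 was higher in A549, MRPL11 lower, and the intervals of MRPL12 overlapped between the cell lines.

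MRPS18A, MRPS18B and MRPS18C derive from the same bacterial protein. By the systematic names, MRPS18A and MRPS18B are nevertheless counted here as specific to mitochondria, and MRPS18C as having a bacterial counterpart. MRPS18A had 39.1 rpkM in HBE LIEA, 36.0 in A549 LIEA and 37.2 in Smart-seq2, and MRPS18B had 56.8, 50.7 and 44.1. MRPS18C, the paralog that keeps the bacterial position, had 19.6, 10.3 and 21.4 rpkM. It was the lowest of the 3 in each library, and its log2 ratio of A549 to HBE was -0.92 (-1.45 to -0.41), against -0.12 (-0.41 to 0.18) for MRPS18A and -0.16 (-0.38 to 0.05) for MRPS18B.

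Mitochondrial ribosome subunits that carry other names had levels within the range of the members. DAP3, a GTP-binding protein of the small subunit, had 46.5 rpkM in HBE LIEA, 33.2 in A549 LIEA and 87.2 in Smart-seq2. AURKAIP1 had 44.5, 92.6 and 72.4 rpkM, and it alone of the 6 compared was past 2-fold between the cell lines, with a log2 ratio of 1.06. The log2 ratios of A549 to HBE of the others were 0.52 for PTCD3, 0.48 for ICT1, 0.28 for CHCHD1, -0.16 for GADD45GIP1 and -0.49 for DAP3.

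Of 43 factors of mitochondrial translation, ribosome assembly, mRNA handling and transcription, 6 were lower and 1 higher in A549, with a median log2 ratio of -0.41. The share that was lower, 13.95%, was below the 17.3% of all genes, and the share that was higher, 2.33%, below the 13.4%. Among the lower ones, MTRF1L, a release factor, was at -1.52 and MRRF, the ribosome recycling factor, at -1.35. TFAM, which packages mitochondrial DNA and takes part in its transcription, was at -1.19. The rRNA pseudouridine synthase RPUSD4 was at -1.17, and the rRNA methyltransferases MRM1 and NSUN4 were at -1.15 and -1.13. MTERFD2, also named MTERF4 and the partner of NSUN4, was higher at 1.17. For comparison, 6 of 81 cytosolic ribosomal proteins were lower and 5 higher (median -0.08), and 7 of 82 respiratory chain subunits lower and 6 higher (median -0.05). Another scaling shifts all ratios of a comparison alike, here by up to 0.16 in either direction, so group medians nearer to 0 than that can change sign with it.

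Promoters are shown for the 2 highest and the 2 lowest ratios among members with 50 reads or more in each of both libraries, as far as they hold no annotated UTR or coding sequence, so that their upstream regions can be compared. MRPL47, with fewer reads, had a lower ratio and is not shown. The sequences are from RefSeq in GRCh38.p14, on the gene's strand, and lie within the 250 bases before the gene start. They are chr19:3762432-3762681 (MRPL54, + strand), chr3:131502984-131503221 (MRPL3, - strand) and chr7:42932215-42932375 (MRPL32, + strand). The RefSeq start of MRPS11 is 255 bases downstream of the start of the GENCODE gene in GRCh37, so that its window is annotated as UTR there and is not printed. Capitals mark matches, on either strand, to motifs of factors often tied to nuclear genes of mitochondria, namely ETS (CCGGAAG), YY1 (AANATGGCG), SP1 (GGGCGGG) and the palindromic consensus of NRF1.
MRPL54: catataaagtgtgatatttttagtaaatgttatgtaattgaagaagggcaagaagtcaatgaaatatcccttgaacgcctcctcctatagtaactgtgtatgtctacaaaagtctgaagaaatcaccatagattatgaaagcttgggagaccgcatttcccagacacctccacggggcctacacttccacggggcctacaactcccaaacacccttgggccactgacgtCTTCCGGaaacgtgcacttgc
MRPL3: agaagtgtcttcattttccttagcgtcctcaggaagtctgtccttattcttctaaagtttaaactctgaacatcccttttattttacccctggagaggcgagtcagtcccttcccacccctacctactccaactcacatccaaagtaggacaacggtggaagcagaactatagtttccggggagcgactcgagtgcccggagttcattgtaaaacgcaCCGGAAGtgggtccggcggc
MRPL32: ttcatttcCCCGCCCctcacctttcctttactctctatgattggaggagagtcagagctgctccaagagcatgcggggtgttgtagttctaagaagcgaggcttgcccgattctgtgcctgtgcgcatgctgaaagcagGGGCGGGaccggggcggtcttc

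The ETS letters stood 15 to 21 bases before the start in MRPL54, which was higher in A549, and 26 to 32 bases before it in MRPL3, which was lower. The stretch of MRPL32 held SP1 letters at 2 places. YY1 letters stood at 2 places outside the printed stretch of MRPL32, 1 of them 215 to 223 bases before the start and the other after the start. For 68 of the 77 coding genes a RefSeq window of 250 bases before to 50 after the start was at hand. The ETS letters were in 41.2% of them against 10.7% of all 27305 promoters and 15.8% of those of genes listed in a library, and the YY1 letters in 26.5% against 3.37% and 5.59%. NRF1 letters were in 11.8% against 6.28% and 9.61%, and SP1 letters in 34 of 68 against 32.9% and 48.9%. These are matches of letters, not binding sites.

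The comparison of LIEA with Smart-seq2 on the same HBE material asks how the library method changes the measured levels. Of 78 mitochondrial ribosomal protein genes compared, 3 were higher by LIEA, where 27.8% of all 11725 genes compared were higher, and 32 were lower, where 19.4% of all were. The shares of the group were 3.85% and 41.0%, below and above the background. The median log2 ratio of LIEA to Smart-seq2 was -0.72 (-1.10 to -0.47), against 0.10 (0.07 to 0.14) for all genes. The counting interval of the ratio lay above 0 for 12 genes, below 0 for 56 and held 0 for 10, and for 25 the whole interval was below 2-fold. Both subunits leaned the same way, with 20 of 50 large subunit genes lower and 2 higher, and 11 of 25 small subunit genes lower and 0 higher. Platform, depth, the error allowance in mapping and the library method changed together and cannot be told apart.

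MRPL50, a large subunit protein specific to mitochondria and encoded on the minus strand at chr9:104149915-104160900 of GRCh37, had the lowest ratio. It had 12.8 rpkM by LIEA (10.96 to 14.8), 12.7 by A549 LIEA and 124 by Smart-seq2 (120 to 128), a log2 ratio of -3.28 (-3.51 to -3.07) or 9.73-fold lower by LIEA. MRPL42 had 9.04 rpkM by LIEA and 51.4 by Smart-seq2, a log2 ratio of -2.51 (-2.77 to -2.25), and MRPL33 had 22.6 and 121 rpkM, a log2 ratio of -2.42 (-2.85 to -2.02). The next were MRPS33 at -2.38, MRPL27 at -2.29, MRPL46 at -2.27, MRPS35 at -2.24 and MRPL44, which carries an RNase III-like fold, at -2.16. The reads of MRPL50, MRPL33 and MRPS33 rest on a whole factor chosen from annotated transcript lengths. Their intervals depend on it, and so does the passing of the 50-read rule by MRPL33 and MRPS33, while the levels and ratios do not. MRPL1, with fewer reads by LIEA, had a log2 ratio of -2.91 (-3.57 to -2.32). In these 9 genes the level in A549 LIEA was also below that of HBE Smart-seq2, as it was in most coding members. The median of the coding members was 32.1 rpkM in A549 LIEA and 54.8 in HBE Smart-seq2. The same Smart-seq2 values served to pick the 9 genes.

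MRPL52, encoded on the plus strand at chr14:23299088-23304246 of GRCh37, stood at the other end. It had 188 reads and 31.4 rpkM by LIEA (27.0 to 36.2) and 60 reads and 4.68 rpkM by Smart-seq2 (3.57 to 6.03), a log2 ratio of 2.74 (2.32 to 3.19). A549 LIEA, with 34.4 rpkM, was close to HBE LIEA. MRPL17, which lies near the tunnel exit, had 57.9 rpkM by LIEA and 24.2 by Smart-seq2, a log2 ratio of 1.26 (1.09 to 1.42). The third gene past 2-fold was the antisense RNA MRPL23-AS1, whose ratio of 1.10 rested on 11 reads in each library and had an interval of -0.25 to 2.44.

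Further down, MRPL54 had a log2 ratio of 0.92, MRPL41 0.78, MRPL10 0.62, MRPL55 0.61, MRPL4 0.53 and MRPL40 0.48. Some of these genes stand out in the cell line comparison as well, which shares the LIEA library of HBE. MRPL41 and MRPL4 were lower in A549 than in HBE by LIEA, at -1.30 and -1.11, while MRPL54, MRPL10 and MRPL40 were higher, at 1.31, 1.16 and 1.16. MRPL46 and MRPS11 were higher in A549 at 0.83 and 1.48 and lower by LIEA than by Smart-seq2 at -2.27 and -1.92.

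**Figure D3:**
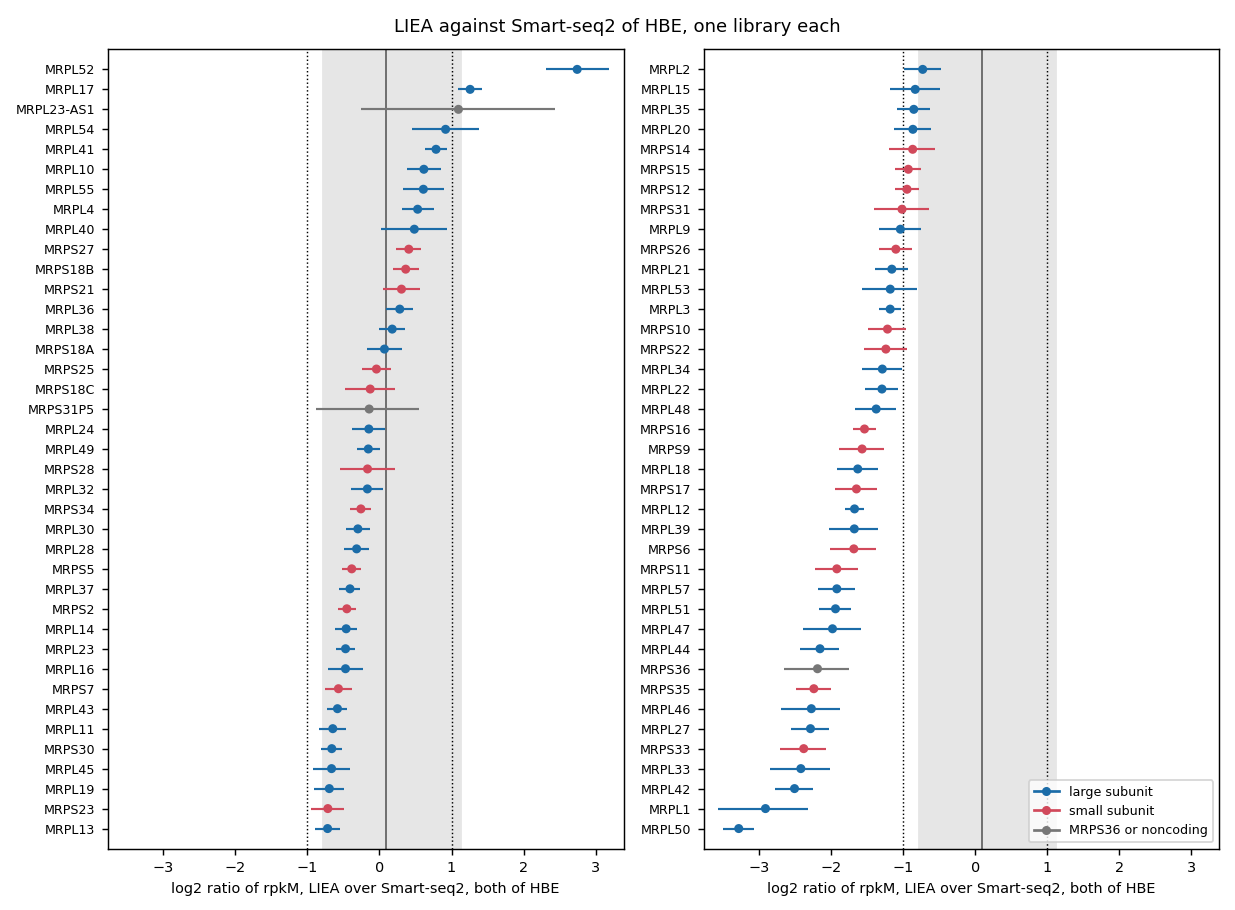
Log2 ratio of rpkM by LIEA over Smart-seq2 of HBE for the 78 genes compared, in descending order over both panels, with the exact 95% counting interval as a line. Colours, dotted lines, grey line and band are the large and small subunits, 2-fold, and the median and the 25th to 75th percentile range of all genes. The whole right panel lies below 0, and 32 genes are past 2-fold on the low side against 3 on the high side.

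MRPS24, a small subunit protein at the entry of the mRNA channel, differed most of all, on few reads. The gene lies on the minus strand at chr7:43906157-43909492 of GRCh37. It had 19 reads and 5.93 rpkM in HBE LIEA (3.57 to 9.26), 9 reads and 3.11 rpkM in A549 LIEA (1.42 to 5.91), and 1 read and 0.146 rpkM in Smart-seq2 (0.00369 to 0.813). The ratio of LIEA to Smart-seq2 was 40.6-fold, with a counting interval of 6.46-fold to 1687-fold. The readthrough transcript URGCP-MRPS24, listed as a gene of its own, holds sequence of MRPS24. It had 370 reads in HBE LIEA, 236 in A549 LIEA and 4 in Smart-seq2. Summed over both symbols there were 389 reads in HBE LIEA, 245 in A549 LIEA and 5 in Smart-seq2, a ratio of LIEA to Smart-seq2 in HBE of 166-fold with a counting interval of 70.7-fold to 515-fold. Most of the reads in both LIEA libraries stood under the readthrough symbol, and neither symbol had 10 reads in Smart-seq2. How the reads of sequence common to both were divided is not given in the sources used here.

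Other parts of the pathway are set beside the 19.4% of all genes that were lower by LIEA and the 27.8% that were higher. Of the 43 factors of mitochondrial translation, ribosome assembly, mRNA handling and transcription, 18 (41.9%) were lower by LIEA and 3 (6.98%) higher. Their median log2 ratio was -0.64. Of 82 respiratory chain subunits, 33 (40.2%) were lower and 15 (18.3%) higher, with a median of -0.70. Of the 6 subunits under other names, 3 were lower, GADD45GIP1 at -1.73, ICT1 at -1.67 and CHCHD1 at -1.15. The cytosolic ribosomal proteins stood on the other side, with 37 of 81 (45.7%) higher by LIEA, 7 (8.64%) lower and a median of 0.68.

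The GC content of the transcripts moved with the method ratio. Over 76 coding members Spearman's rho of the log2 ratio with GC was 0.40, and over all genes 0.38. The genes of a library share its depth and preparation, so these are descriptions across genes. Below 45% GC, the median log2 ratio of LIEA to Smart-seq2 was -1.23 for 24 coding members and -0.46 for all genes. From 45 to 50% it was -0.83 against 0.05, from 50 to 55% it was -0.57 against 0.41, and from 55% it was -0.46 against 0.77. In each range of GC the median of the members was lower than that of all genes, and none of the 24 members below 45% GC was above 0. The GC content of the coding members was much like that of other genes, with a median of 49.0% against 49.1% for the quantified genes.

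**Figure D4:**
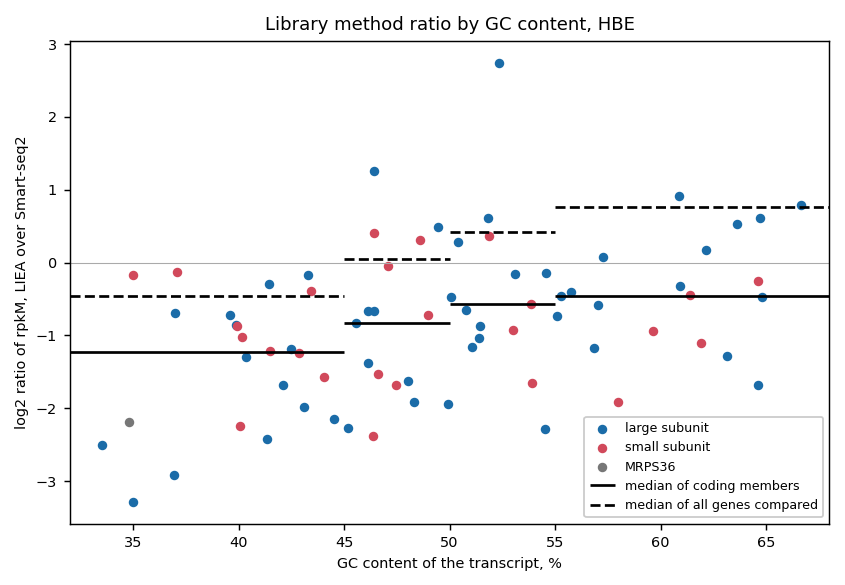
Log2 ratio of rpkM by LIEA over Smart-seq2 of HBE (vertical axis) against the GC content of the transcript in % (horizontal axis) for the 76 coding genes compared, with solid lines for their medians and dashed lines for the medians of all genes in 4 ranges of GC. The solid lines rise from -1.23 to -0.46 and the dashed lines from -0.46 to 0.77, with the solid line lower in each range.

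The members were short, with a median transcript length of 1286 nucleotides against 3031 for the quantified genes. Among transcripts under 1000 nucleotides, the median log2 ratio of LIEA to Smart-seq2 was -1.04 for the members and -0.32 for all genes. Between 1000 and 2000 nucleotides it was -0.72 against -0.39, and above that -0.77 against 0.26. Spearman's rho of the log2 ratio with length was 0.05 over 76 coding members and 0.28 over all genes. The members were again the lower in each range. The part of GC content and of length in the difference was not tested.

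Levels within the group were also compared across genes. Across 76 coding members, Pearson's r of log2 rpkM was 0.80 between A549 and HBE by LIEA (Spearman's rho 0.76) and 0.58 between LIEA and Smart-seq2 of HBE (rho 0.60). The same values over all genes compared were 0.82 (rho 0.81) and 0.78 (rho 0.75). These are descriptions across genes, and both pairs share the LIEA library of HBE. The SD of the log2 ratios over the members was 0.76 for the cell lines and 1.06 for the methods. Over all genes compared it was larger in both, 1.193 for the cell lines and 1.4996 for the methods. The lower r of the coding members therefore did not go with a wider spread of ratios than among all genes.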

How the data were processed

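Expression was measured in 3 libraries with 1 library per condition, grouped by the labels. The authors mapped reads with FANSe2 to RefSeq-RNA, merged splice variants and deposited log2 rpkM per gene, with no pseudocount and with genes without reads left out. Filters on Ion Torrent reads removed short and low-quality reads. The design assumed reads. As the deposited values are log2, 2 was raised to each value to give rpkM, and reads, lengths and totals were recovered as whole numbers, which assumes that a value is reads over length and total. At the totals, 86.7% of 300 genes used to find them gave whole lengths, and the recovered reads sum to 98.4 to 98.8% of the totals. Reads and length share a whole factor, chosen from 1 to 12 by annotated transcript lengths and above 1 for 1403 genes, among them 5 members (MRPL33, MRPL50, MRPS33, MRPS36 and MRPS5). A factor changes the reads and intervals, not the level or ratio. The recovery was tested on simulated data. In each library, 4 rows whose names had been turned into dates were left out.

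Intervals are at the 95% level, exact Poisson for levels, exact conditional binomial for ratios and exact binomial for shares. These cover the counting error of reads only, and PCR reads are not independent molecules. Intervals of medians over genes come from order statistics and describe the spread over genes, not variation between libraries. Genes with at least 10 reads in both libraries were compared, and calls are differences past 2-fold. Named genes are the 8 highest and 8 lowest ratios among members with at least 50 reads in both libraries, the 5 highest and lowest levels per library, members below 10 reads, the MRPS18 paralogs, the stalk proteins, subunits under other names and pathway factors past 2-fold between the cell lines. The members, lists and rules were chosen with earlier results of these data known. Gene positions, transcript lengths and GC content came from GENCODE release 44 on GRCh37, where 94.3% of listed genes matched, and promoters from RefSeq on GRCh38.p14, placed on GRCh37 by exact match to leave out annotated UTR and coding bases. The tools were numpy 2.4.6, pandas 2.3.3, scipy 1.17.1 and matplotlib 3.10.9 under Python 3.11.15. Bulk mRNA-seq and splice junctions were not analysed here.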

Additional observations from a re-analysis of the deposited data

How the results depend on the processing

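No paired analysis was possible because there is only 1 library for each condition, and for the same reason no library could be left out. With 1.5-fold in place of 2-fold, the members called between the cell lines numbered 43, 14 higher (18.2%) and 29 lower (37.7%) in A549, where 22.3% of all genes were higher and 31.98% lower. As a share of summed rpkM, the members took 0.773% in HBE LIEA, 0.602% in A549 LIEA and 1.18% in Smart-seq2. When each gene was given its smallest whole number of reads, a setting added once the data had been seen, their share of reads was 0.4001%, 0.343% and 0.678%. The order of the libraries was the same under both. Between the cell lines, the 5 higher and 14 lower members became 6 and 9 after centring on the median of all genes, 5 and 11 with median-of-ratios size factors and 4 and 20 on the TPM scale, while all genes went from 13.4% higher and 17.3% lower to 16.4% and 13.2%, 15.6% and 14.3%, and 11.2% and 22.5%. The median of all genes moves by 0.16 on centring. Between the methods, the 3 higher and 32 lower became 2 and 34, 2 and 34, and 4 and 26, while all genes went from 27.8% higher and 19.4% lower to 25.4% and 21.8%, 25.1% and 22.3%, and 32.1% and 15.1%. With at least 20 reads in both libraries, 6.67% of the members were higher and 17.3% lower in A549, against 11.7% and 16.4% of all genes. Between the methods that setting gave 2.60% higher and 41.6% lower, against 26.9% and 19.2%. The ratios of 16 named members per comparison were recomputed under other scalings and with a pseudocount, which gave 80 values each. Between the cell lines 80 values stayed within their counting intervals, and between the methods 78 did. None changed sign. Most of these settings shift all ratios of a comparison by the same constant, and the members were picked as the highest and lowest ratios, so little movement was possible. Depth limits the lowest members most, and MRPL45P2 had at most 6 reads in any library.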

Other observations

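MRPL46 and MRPS11 lie head to head on chromosome 15, with 62 bases between the annotated genes in GRCh37, and no other 2 coding members lie so close together. The pair was chosen after its values were seen. MRPL46 had 11.9 rpkM in HBE LIEA, 21.2 in A549 LIEA and 57.8 in Smart-seq2, and MRPS11 had 15.0, 41.9 and 57.0. Both were lowest in HBE LIEA and highest in Smart-seq2, with log2 ratios of A549 to HBE of 0.83 (0.32 to 1.34) and 1.48 (1.14 to 1.82).

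MRPS36, the member that is no ribosome subunit, had 7.84 rpkM in HBE LIEA, 8.69 in A549 LIEA and 35.8 in Smart-seq2, and its ratio between the methods was -2.19 on the log2 scale (-2.65 to -1.76). The interval depends on a whole factor chosen from annotated transcript lengths.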
